A study of Canis lupus familiaris with 2 samples.

Results

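The miRNAs described here come from the imprinted region between the genes DLK1 and DIO3, which holds a dense cluster of miRNA genes. Members were taken by name, as the dog (cfa-) spots of the array whose miRNA number belongs to the cluster, with letter and arm suffixes ignored. Of 42 numbers listed for the cluster, 31 were on the array, and they gave 35 miRNAs, beside 256 other dog miRNAs on the chip. The choice by name used no measured value, though it was made with earlier results of these data known. Serum miRNAs of normal dogs and of dystrophic dogs were compared, all male and 2 months old. The dystrophic dogs were of the CXMD_J colony, which carries X-linked muscular dystrophy and serves as a dog model of Duchenne muscular dystrophy, and all the dogs of the study were born into that colony. Serum of 3 dogs was mixed for each condition, and RNA from each mixture carried the dye Cy5 on 1 array. With 1 array per condition and 1 spot per miRNA there was no replicate error, no test between the conditions was made, and the differences below describe these 2 arrays.

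The miRNAs of this region are transcribed from the maternal copy of the chromosome together with long non-coding RNAs and small nucleolar RNAs, whereas the protein-coding genes DLK1, RTL1 and DIO3 are transcribed from the paternal copy. Some of the miRNAs lie antisense to RTL1, a gene derived from a retrotransposon, and are known to cleave its mRNA. The cluster is known for high levels in placenta, embryonic tissues, brain and muscle progenitor cells, and in muscle and nerve cells its transcription is driven by MEF2 factors. In serum a miRNA can come from any tissue that releases it, and the amount released per cell and the number of releasing cells cannot be told apart.

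By name, 34 of the 35 miRNAs matched a gene of RefSeq (dog assembly UU_Cfam_GSD_1.0) and miR-369 did not. The matched miRNAs had 36 genes, because miR-376a has several, and all of them lay on chromosome 8 between DLK1 and DIO3. In gene order miR-493 and miR-665 came first. The genes of miR-433, miR-127, miR-432 and miR-136 followed within the bounds of RTL1, the only protein-coding gene in the span. miR-370 came next, and 52 annotated small nucleolar RNA genes separated it from the long run of matched members that starts at miR-379 and ends at miR-410. The members are described in these groups, the RTL1 side with 6 miRNAs, miR-370 alone, and the miR-379 to miR-410 group with 28, where miR-369 was placed from general knowledge.

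A spot was counted as detected when its intensity was above the mean of the blank spots plus 2 SD, both taken after trimming 5% of the blank spots at each end. The limit was 126 scanner units for normal serum and 124 for dystrophic serum. The mean of the blank spots, 118 and 116 units, was subtracted, and each array was scaled to a median of 25 over its detected dog miRNAs, which gives the normalized signal. Because each miRNA has 1 spot, a spot-error range was set around each ratio from the span of the central 95% of the 1408 blank spots and from the spread of replicate spots of 10 bright control probes, a coefficient of variation of 6.67%. The range leaves out differences between dogs, RNA preparations and arrays. The limit lay low, since 8.59% to 9.38% of the blank spots and 23.8% to 26.5% of the 181 positions listed as having no probe exceeded it. Among markers of other sources, the skeletal muscle list (5 of 5 on the array) had a summed normalized signal of 67.7 in normal and 6616 in dystrophic serum. In dystrophic serum miR-133a, miR-133b and miR-133c read 1934, 2426 and 2097, whereas miR-206 read 139 and miR-1 read 20.6. The red-cell list (4 of 5 on the array) had sums of 1457 and 324, with miR-185 in the latter only and miR-144 detected in neither serum. For the liver list the sums were 38.7 and 34.8, with miR-194 detected in neither. For a further list, of miR-223, miR-126, miR-142 and miR-150, they were 306 and 207, with miR-126 detected in neither. In that list miR-142 had a ratio of 2.24, whereas miR-223 had 0.549 and miR-150 had 0.743.

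Most cluster miRNAs lay near the background of the array. In normal serum 13 of the 35 were detected and in dystrophic serum 21, compared with 54.6% and 64.6% of all dog miRNAs. 12 were detected in both sera, which is 34.3% of the cluster against 48.8% of all dog miRNAs on the chip. 9 were detected in dystrophic serum alone, 25.7% against 15.8%. 1 was detected in normal serum alone, 2.86% against 5.84%, and 13 were detected in neither, 37.1% against 29.6%. On the normal array 3 cluster spots, those of miR-370, miR-494 and miR-665, exceeded the 99th percentile of blank intensities, or 8.57% compared with 24.4% of all dog miRNAs. On the dystrophic array 13 exceeded it, or 37.1%, the same share as over all dog miRNAs, 37.1%. A stricter reference, the 99th percentile of the spots without a probe, was passed by 2 cluster miRNAs in normal serum, miR-370 and miR-494, and by 3 in dystrophic serum, these and miR-127. Over all dog miRNAs the shares that passed it were 15.5% and 18.9%.

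**Figure D1:**
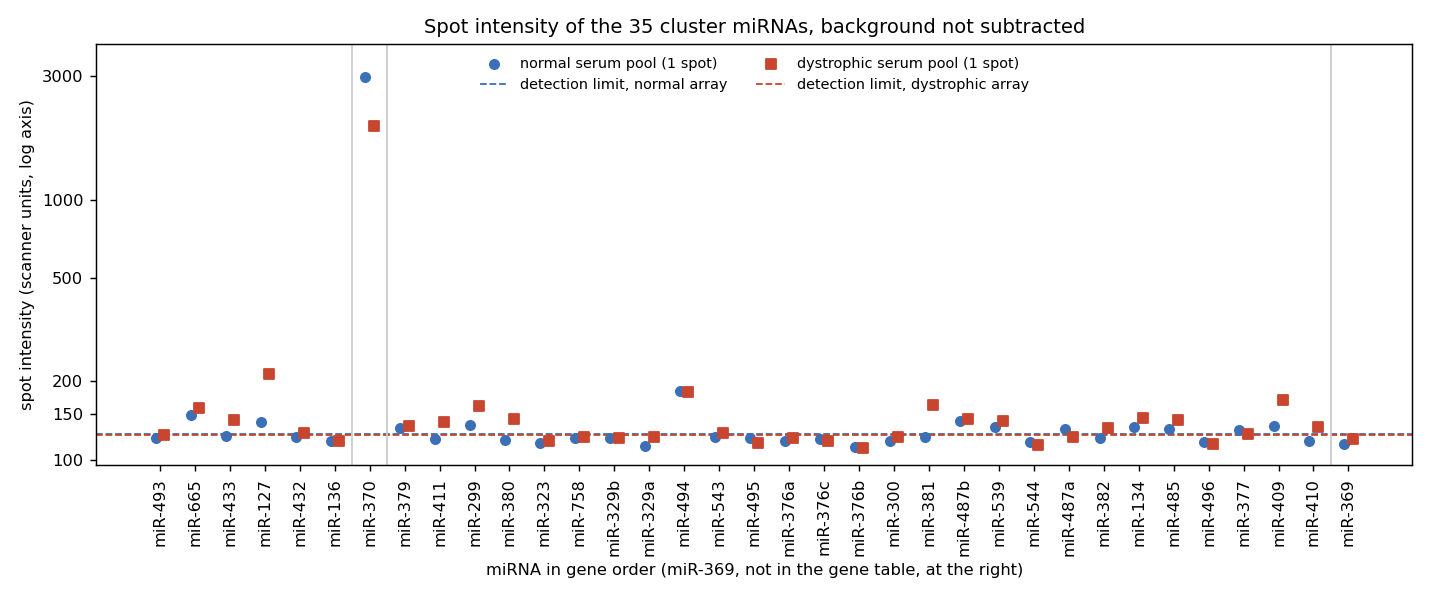
Spot intensity in scanner units (log axis) of the 35 cluster miRNAs in gene order, 1 point per array, with the detection limits of 126 and 124 as dashed lines. Grey lines set apart the RTL1 side, miR-370, the miR-379 to miR-410 group and miR-369. miR-370 stands at 2979 and 1932, and the other miRNAs lie between 111 and 214.

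On the RTL1 side all 6 spots read higher above background in dystrophic serum, as did 75.6% of all dog miRNA spots. Of the 6 miRNAs 2 were detected in normal serum and 5 in dystrophic serum, beside 54.6% and 64.6% of all dog miRNAs. miR-127, one of the miRNAs antisense to RTL1, had a spot of 139 in normal serum and 214 in dystrophic serum. Its normalized signals were 22.3 and 80.9, a ratio of 3.62 with a spot-error range from 2.41 to 24.5. It had the highest ratio of the cluster and the only range of the 12 that lay above 2. Over all dog miRNAs detected in both sera, 9 of 142 had such a range. In dystrophic serum none of the 181 probe-free spots reached it, whereas in normal serum 12 did.

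The normal value of miR-127 rested on a part of the array with an uneven background. The array is divided into 32 blocks with 44 blank spots in each. In the block of miR-127 the trimmed blank spots of the normal array had an SD of 9.43 units, compared with a median of 3.15 over the blocks, and 7 of the 44 reached or passed its intensity. When the blank level and SD of its own block were used, miR-127 was not detected in normal serum, and its normalized signals were 15.1 and 100.4. In dystrophic serum its spot was above all 44 blank spots of the block. Without background subtraction its ratio was 1.49, and with the normexp correction it was 1.78.

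miR-665, whose gene lies before RTL1, was detected in both sera, with normalized signals of 31.9 and 35.3. Its ratio of 1.11 had a spot-error range from 0.619 to 2.84, which includes 1. miR-433, which also lies antisense to RTL1, read 123 in normal serum, below the limit, and 142 in dystrophic serum. With a normalized signal of 21.6 it was at least 2.60-fold higher there than the lowest signal detected in normal serum, 8.30. Such an at-least fold takes both signals as read and leaves out spot error, so it is no lower limit of a spot-error range. With the blank level of its own block miR-433 was detected in both sera, with a ratio of 3.51. miR-432 and miR-493 were detected in dystrophic serum alone with signals of 9.04 and 7.51, the former at least 1.09-fold higher and the latter below the lowest signal detected in normal serum, so that no bound was obtained. miR-136, with spots of 118 on both arrays, was detected in neither.

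miR-370 had by far the brightest spot of the cluster on both arrays, and it was lower in dystrophic serum. Its spot read 2979 in normal serum and 1932 in dystrophic serum, ranking first and 4th among the dog miRNAs of each array. Spots of different probes bind with different strength, so this rank does not measure the amount of miR-370 against other miRNAs. The normalized signals were 2976 and 1502, a ratio of 0.505 with a spot-error range from 0.419 to 0.607. It was the only one of 12 cluster miRNAs with a range below 1, compared with 12 of the 142 dog miRNAs detected in both sera. The ratio of miR-370 was just above the limit of 0.5 that the study uses for reduced miRNAs. Before scaling, the ratio of the background-subtracted spots was 0.635, whereas 9 of the 10 bright control probes had ratios from 0.854 to 1.06 and the remaining one, S-Probe6, had 2.22.

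Whether miR-370 passed the limit of 0.5 depended on the scaling and on the detected miRNAs that the scaling rests on. Its ratio was 0.464 with detection at 3 SD, 0.490 with scaling on the 75th percentile, 0.415 when the scaling used miRNAs found in both sera and 0.391 with quantile normalization. It was 0.661 with the blank level of each block, 0.655 with scaling on the spike controls and 0.635 without scaling. The ratio stayed below 1 in all 14 alternatives. Of the red-cell miRNAs, miR-451 had a ratio of 0.196 and miR-16 a ratio of 0.346. miR-185 went the other way and was detected in dystrophic serum alone, with normalized signals of 1.99 and 11.4, and the undetected miR-144 had 0.902 and 5.03. Their part in the value of miR-370 was not tested.

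In the miR-379 to miR-410 group 9 of the 28 miRNAs were detected in both sera, compared with 48.8% of all dog miRNAs. 6 of these 9 had a ratio above 1, compared with 58.5%. miR-409 read 135 in normal serum and 169.9 in dystrophic serum. Its normalized signals were 17.7 and 44.7, and its ratio of 2.53 had a spot-error range from 1.44 with no upper limit. The ratio of miR-409 was 1.95 with quantile normalization, 1.37 with normexp and 1.22 without background subtraction. On the dystrophic array it lay in a block with a blank level of 125, above the level of the whole array, and 2 of the 44 blank spots there reached its intensity. With the blank level of the block its ratio was 3.39.

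miR-299 followed, with normalized signals of 18.9 and 37.6 and a ratio of 1.99. Its spot-error range began at 1.08 and had no upper limit, and its ratio ran from 1.15 without background subtraction to 2.61 with untrimmed blank spots. It was 1.25 with normexp, 1.52 with quantile normalization and 2.33 with the blank level of each block. miR-485 and miR-134 are known from neurons, where the former acts on a synaptic vesicle protein and the latter on the growth of dendritic spines through Limk1. Their normalized signals were 13.4 and 22.0 for miR-485 and 15.7 and 24.0 for miR-134. With the blank level of each block the ratios were 2.29 and 2.12. With the blank level of the whole array they were 1.65 and 1.54, and both spot-error ranges included 1. The same was so for miR-539, with a ratio of 1.36, and for miR-379, the first gene of the group, with a ratio of 1.03.

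miR-494 was the member of the group with the clearest spot on both arrays, reading 185 in normal and 182 in dystrophic serum. Its normalized signals were 69.2 and 54.9. The ratio was 0.794 with a spot-error range from 0.552 to 1.17, so that a difference between the arrays could not be seen beyond spot error. Before scaling its ratio was 0.998. miR-487b had normalized signals of 23.1 and 22.5 and a ratio of 0.973. Its normal spot shared the uneven block of miR-127, and with the blank level of that block it was detected in dystrophic serum alone. miR-377 had the lowest ratio of the group, 0.605, from spots of 130.2 and 125, and its spot-error range was open at both ends. Its block had an SD of 6.26 units among the trimmed blank spots of the normal array. With the blank level of that block miR-377 was detected in dystrophic serum alone. Its normalized signals were then 8.65 and 12.1, higher on the dystrophic array.

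**Figure D2:**
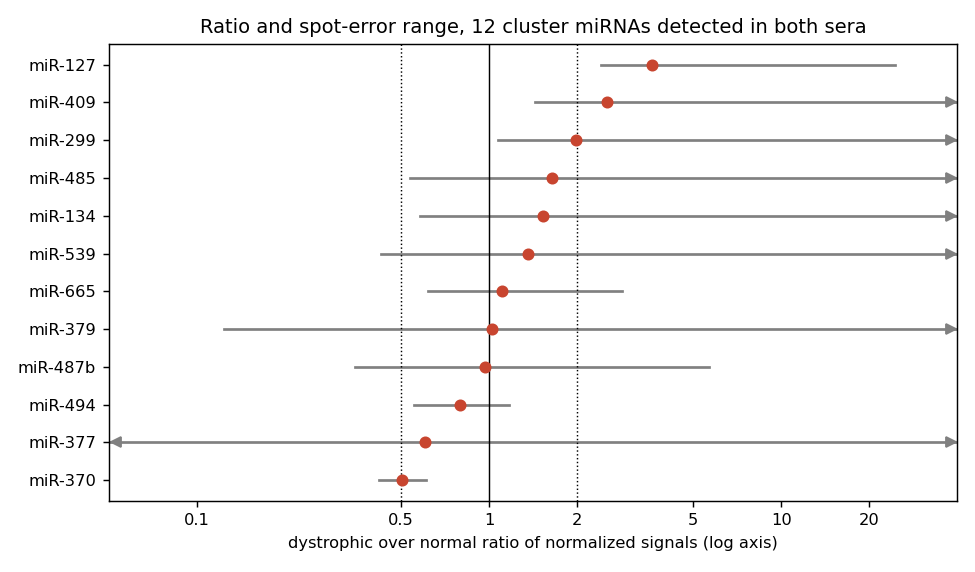
Dystrophic over normal ratio of normalized signals (log axis) for the 12 cluster miRNAs detected in both sera, 1 point each, with lines for the spot-error range and arrowheads where a range has no limit. The range lies above 1 for miR-127, miR-409 and miR-299 and below 1 for miR-370, while the other 8 ranges include 1. Of the 142 dog miRNAs detected in both sera, 30 have a range above 1 and 12 a range below 1.

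The 9 cluster miRNAs detected in dystrophic serum alone had spots between 125 and 162 on that array and normalized signals between 7.51 and 38.2. miR-381 was the highest, with a spot of 122 in normal serum and 162 in dystrophic serum, at least 4.61-fold higher in dystrophic serum. On the dystrophic array 4 of the 181 probe-free spots reached the intensity of miR-381. It was also the only member of the 9 above every negative-control spot of that array. miR-380 had spots of 118 and 144, at least 2.77-fold higher, and miR-411 had spots of 120.0 and 139.9, at least 2.40-fold higher. In the block of miR-411 on the dystrophic array, 5 of the 44 blank spots reached its intensity. miR-410, the last of the matched genes in gene order, was at least 1.72-fold higher with a signal of 14.3. miR-382 was at least 1.67-fold higher with a signal of 13.9, and miR-543 at least 1.09-fold higher with 9.05. With the blank level of its own block miR-382 was detected in both sera, with a ratio of 2.28. Of the 9, miR-381, miR-380 and miR-433 exceeded the 99th percentile of blank intensities, and none exceeded that of the probe-free spots.

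miR-487a was the single member detected in normal serum alone. Its spots read 132 and 122, and its signal of 14.2 was at least 2.07-fold higher than the lowest signal detected in dystrophic serum, 6.87. This spot too lay in a block with scattered blank spots, with an SD of 6.26 units on the normal array, and with the blank level of that block the detection call turned to dystrophic serum alone. Its normalized signals were then 10.04 and 8.84, still higher on the normal array.

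The 13 miRNAs detected in neither serum were miR-136, miR-323, miR-758, miR-329a, miR-329b, miR-495, miR-376a, miR-376b, miR-376c, miR-300, miR-544, miR-496 and miR-369. All but miR-136 belong to the miR-379 to miR-410 group. Entire families by name were among them, namely miR-329a and miR-329b, and miR-376a, miR-376b and miR-376c, whose transcripts are known to undergo A-to-I editing. Members of such a family are similar in sequence, and their spots can share labelled RNA. The highest normalized signal among the 13 was 3.12 in normal serum and 5.50 in dystrophic serum, under limits of 8.19 and 6.81 on the same scale. With the blank level of each block, miR-376a, miR-300 and miR-369 were detected in dystrophic serum alone and miR-495 in normal serum alone. At the background of the whole array the 13 miRNAs were not detectable, which does not show that they were absent from the sera.

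Over the whole cluster, a ratio above 2 was read for miR-127 and miR-409, 2 of the 12 with a ratio, compared with 13.4% of the 142 dog miRNAs detected in both. None had a ratio of 0.5 or less, compared with 5.63%. 8 of the 12 had a ratio above 1, compared with 58.5%. The median ratio was 1.23 in the cluster and 1.09 over all dog miRNAs detected in both sera, or 0.30 and 0.13 on the log2 scale. The cluster median on that scale fell below 0 with quantile normalization, at -0.12, with detection above every negative-control spot, at -0.49 on 2 miRNAs, and with a minimum signal of 25 in both sera, at -0.33 on 3 miRNAs. With the blank level of each block, 6 of 11 cluster ratios were above 2, compared with 22.3% of all, and the medians were 1.08 and 0.52 on the log2 scale. These shares rest on 12 and 11 miRNAs. The 4 muscle miRNAs detected in both sera, miR-206 and the similarly named miR-133a, miR-133b and miR-133c, had ratios from 12.6 to 152. These lay outside the cluster ratios, which ran from 0.505 to 3.62. However, 3 of the muscle spot-error ranges and 7 of the 12 cluster spot-error ranges had no upper limit. The spot-error range of miR-127 reached 24.5, above the ratio of 12.6 for miR-206. The remaining muscle marker, miR-1, passed the limit only on the dystrophic array. Its at-least fold of 2.48 does not place it outside the cluster range.

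**Figure D3:**
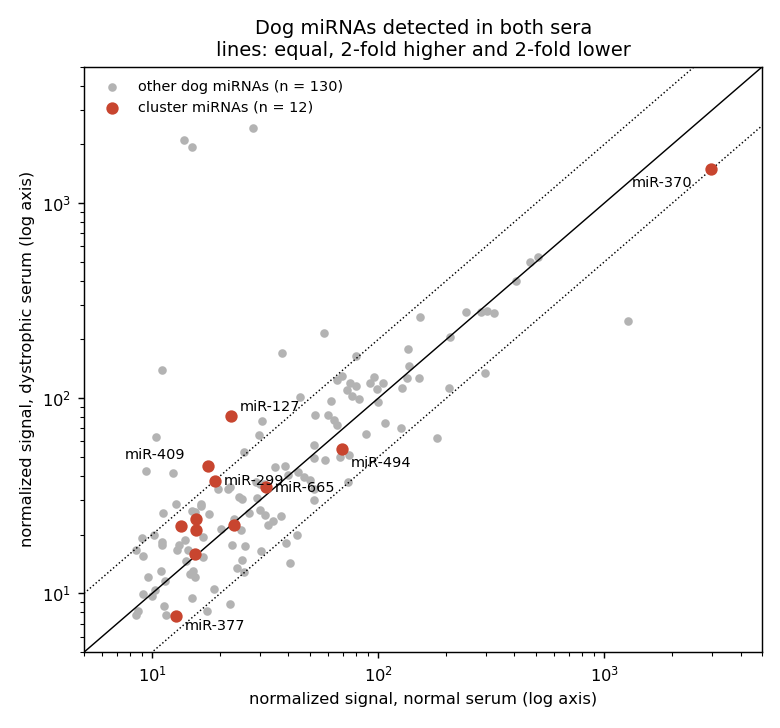
Normalized signals of the dog miRNAs detected in both sera, normal on the horizontal and dystrophic on the vertical axis (both log axes), with the 12 cluster miRNAs in red and 130 other miRNAs in grey. miR-127 and miR-409 lie above the upper dotted line of 2-fold, and miR-370 lies at the lower dotted line with signals of 2976 and 1502. A normal signal below 25 is seen for 9 of the 12, compared with 62 of all 142 dog miRNAs detected in both sera.

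Before any scaling, 28 of the 35 cluster spots were brighter above background on the dystrophic array, compared with 75.6% of all dog miRNAs. The median difference, dystrophic minus normal, was 6.40 units for the cluster miRNAs and 5.59 for the other 256 dog miRNAs. It was 0.24 for blank spots and 0.68 for spots without a probe. In the 1106 QC spots the median was 5.96, and in the 32 negative controls it was 2.29. The shift of the cluster was therefore of the size seen in the other dog miRNAs and in the QC spots, whose target is not named in the sources used here. The part that this common shift has in the miRNAs detected in dystrophic serum alone was not tested. A difference above 10 units was read for 14 of the 35 cluster miRNAs, compared with 36.3% of the other dog miRNAs and 8.31% of the blank spots.

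**Figure D4:**
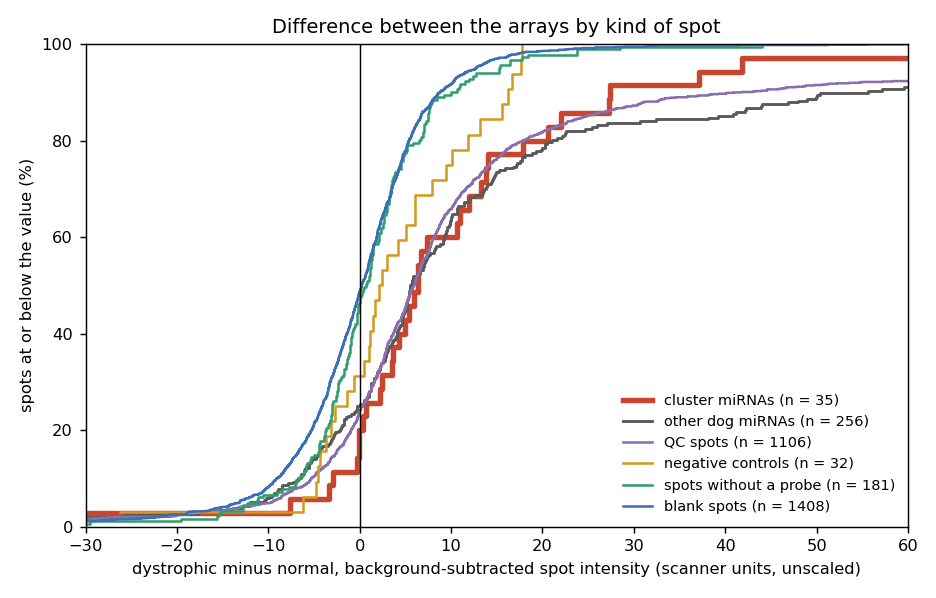
Cumulative share of spots (%) by the difference between the arrays, dystrophic minus normal, in background-subtracted scanner units before scaling, for 6 kinds of spot. The curve of the cluster miRNAs (median 6.40) runs with those of the other dog miRNAs (5.59) and the QC spots (5.96) and to the right of those of the blank spots (0.24) and of the spots without a probe (0.68); values beyond the axis, such as that of miR-370, are not drawn.

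The detected set depended on the reference used for background. With the untrimmed blank spots 7 cluster miRNAs were detected in both sera and 10 in dystrophic serum alone. The shares over all dog miRNAs were then 34% and 17.2%. With the blank level of each block 11 were detected in both sera and 13 in dystrophic serum alone, compared with 47.8% and 24.7%. With a limit at 3 SD the counts were 11 and 6, compared with 40.5% and 13.4%. When a spot had to be above every negative-control spot, miR-370 and miR-494 were detected in both sera, compared with 17.2%. Under that rule 5 more, miR-127, miR-409, miR-381, miR-665 and miR-299, were detected in dystrophic serum alone, compared with 11%.

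**Figure D5:**
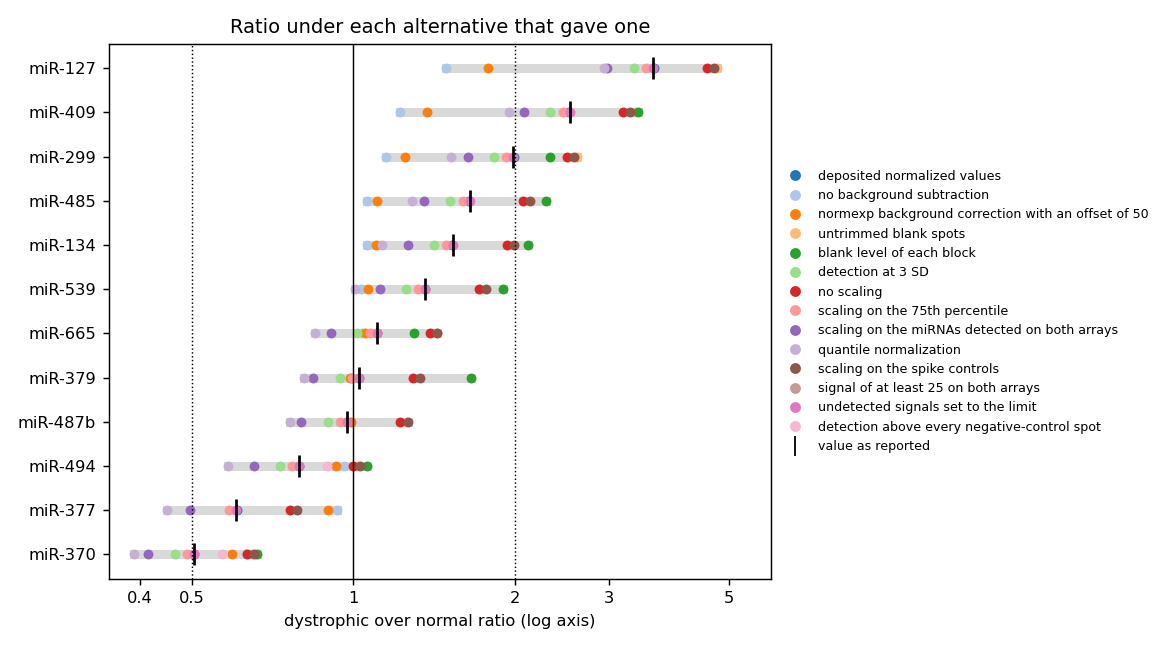
Dystrophic over normal ratio (log axis) of the 12 cluster miRNAs detected in both sera under each of the 14 alternatives that gave a ratio, 1 point each, with the value as reported as a black mark. miR-127 ran from 1.49 to 4.77, miR-409 from 1.22 to 3.39 and miR-370 from 0.391 to 0.661, and ratios near 1 such as those of miR-379 and miR-494 lay on either side of it.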

How the data were processed

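The authors hybridized RNA from 1 serum pool per condition, each of 3 dogs, and deposited 2 kinds of values. The scanner files hold the raw spot intensity, a median brightness per spot with no background removed. The deposited value table holds intensity after global normalization, written to 1 decimal. 3D-Gene Extraction produced them, and its version and settings are not given in the sources used here. Groups were taken from the sample titles. For each array the blank mean, after leaving out 71 spots at each end (5%, rounded up because this matched the deposited values), was subtracted from the raw intensity, and signals were scaled to a median of 25. Detection matched the deposited table for every dog miRNA, and signals differed from it by at most 0.0498 units. No cluster spot was marked unusable by the scanner. Bright control probes were those whose signal reached 5 times the limit on both arrays. An at-least fold sets the detected signal against the lowest signal detected on the other array and leaves out spot error. Normexp used an offset of 50. All members are named, by the rule that each is accounted for, and the members, groups, marker lists and alternatives were chosen with earlier results of these data known. Seed families were not formed, since no mature sequences were used here. RefSeq gave gene names and gene order alone, as the array names no genome build. The code was tested on simulated data. No test between the conditions was made, 14 alternatives were tried, and the number of arrays limits the precision. Software was limma 3.58.1 in R 4.3.3 for normexp, and Python 3.11.15 with numpy 2.4.6, pandas 2.3.3 and matplotlib 3.10.9.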

Additional observations from a re-analysis of the deposited data

How the results depend on the processing

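The cluster miRNAs detected in both sera numbered 12, with 2 above 2-fold, 0 at 0.5-fold or less and a median log2 ratio of 0.30. The deposited values gave the same counts and a median of 0.29. Without background subtraction 0 were above 2-fold and the median was 0.051, and with normexp and an offset of 50 the values were 0 and 0.081, both of which draw ratios toward 1 by construction. Untrimmed blank spots left 7 miRNAs with a median of 0.52, and the blank level of each block gave 6 above 2-fold and a median of 1.08. Detection at 3 SD gave 1 at 0.5-fold or less. Detection above every negative-control spot left 2 miRNAs, 0 above 2-fold, and turned the median to -0.49, and a minimum signal of 25 in both sera left 3, 0 above 2-fold, with a median of -0.33. Without scaling 4 were above 2-fold with a median of 0.63, and with the spike controls 4 with 0.67. The 75th percentile gave 1 at 0.5-fold or less, scaling by miRNAs found in both sera gave 2 and a median of 0.013, and quantile normalization gave 1 above 2-fold, 2 at 0.5-fold or less and a median of -0.12. Undetected signals set to the limit gave 6 and 1 with a median of 0.53. These scalings moved all dog miRNAs too. The median over all of them shifted by 0.33 without scaling, by 0.38 with the spike controls, by -0.28 when scaled by miRNAs found in both sera and by -0.39 with quantile normalization, and by 0.39 with the blank level of each block. Counts over all dog miRNAs, 19 and 8, were 34 and 3 without scaling, 31 and 3 with the blank level of each block, 12 and 19 when scaled by miRNAs found in both sera, and 10 and 22 with quantile normalization.

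Of 140 ratios of the 12 miRNAs under the alternatives, 129 lay inside the spot-error range, 11 outside it and 14 on the other side of 1, and no ratio above 2 turned below 1. Of the 11 outside, 7 belonged to miR-370, whose ratio depended on the scaling. The others were 2 each of miR-127 and miR-409, without background subtraction and with normexp. Beyond the scaling and the pull toward 1 named above, the cause was not tested. No replicate could be left out. No paired analysis was possible because there is a single pool for either condition. Low signal over background limits most of these ratios, since 9 of the 12 had a normal signal below 25. Over all dog miRNAs detected in both sera it was 62 of 142.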
